A study of Rattus norvegicus with 10 samples.

Results

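The cytochrome P450 genes of families 1, 2 and 3, which encode the main drug- and toxin-metabolizing monooxygenases of the liver, were examined in rats with CCl4-induced cirrhosis. They were analysed along with the genes of their electron donors Por and Cyb5a and of the xenobiotic receptors Ahr, Nr1i2 and Nr1i3. A gene was included when a probe set carried its symbol and no other, and where a gene had several, the one that varied most over the 10 arrays was used. The strongly sex-patterned genes Cyp2c11, Cyp2c12, Cyp2c13 and Cyp2a2 were left out. This gave 33 genes, 28 of them P450s, out of 14217 genes on the array. Cyp2b1 and Cyp2b2 share their probe set, so that neither could be included, and 3 probe sets in all that name several P450s were not used. CVX-060 inhibits angiopoietin 2, a vessel-destabilizing ligand of the Tie2 receptor, and its effect on gene expression in cirrhotic liver was the question asked. The 5 CVX-060 rats were injected in the tail vein with 10 mg/kg once a week for 4 weeks, and the 5 vehicle rats received injections of vehicle. All 10 were male Wistar rats that had inhaled CCl4, each was a separate animal measured on its own Affymetrix array, and ages are not given in the sources used here. Healthy livers were not analysed here, so every value belongs to cirrhotic tissue.

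P450 enzymes sit in the membrane of the endoplasmic reticulum of hepatocytes, where they insert an oxygen atom into lipophilic compounds. The electrons come from NADPH through P450 oxidoreductase, the product of Por, and for some reactions through cytochrome b5. Transcription of many of these genes is driven by receptors that bind foreign compounds: the aryl hydrocarbon receptor (Ahr) for family 1, and the constitutive androstane receptor CAR (Nr1i3) and the pregnane X receptor PXR (Nr1i2) for families 2 and 3. CCl4 itself is turned into its toxic radical by P450s, above all by Cyp2e1. Several rat P450s also differ between the sexes through the pattern of growth hormone secretion.

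The first principal component over all genes held 35.4% of the variance, and CVX-060 rat 5 and vehicle rat 2 stood apart on it, with scores of 35.5 and 34.5 against -26.2 to 9.74 in the other 8 rats. These rats also had the lowest signals of the male-specific Cyp2c11, 11.42 in CVX-060 rat 5 and 8.99 in vehicle rat 2 against 12.69 to 13.93 elsewhere, and the highest of the female-specific Cyp2c12, 12.02 and 12.71 against 7.11 to 9.79. Values are log2 signals, and the array medians ran from 5.52 to 5.57. Of 5 hepatocyte markers measured, Alb, Apoa1, Ttr and Cps1 lay above background in all 10 rats, whereas the probe set used for Fgb did so in 0. The mean of these 5 markers was 11.96 to 11.99 in CVX-060 rats and 11.77 to 12.01 in vehicle rats. Whole liver was measured, so fewer cells of a type and less RNA per cell cannot be told apart.

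No P450, donor or receptor gene differed between CVX-060 and vehicle livers beyond the spread of the rats. Of the 33 genes, 0 passed an adjusted p of 0.05 in limma (Benjamini-Hochberg over all genes), as did 0% of the 14217 genes tested (lowest adjusted p 0.99997). At an unadjusted p under 0.05 the count was 0 of 33, against 2.44% of all genes. The ranges of both groups overlapped for every one of the 33 genes, while they did not for 0.485% of all genes. The mean was higher with CVX-060 for 10 of the 33 genes (30.3%) and lower for 23, against 52.6% higher over all genes, and the median difference, CVX-060 minus vehicle, was -0.06 on the log2 scale against 0.01 over all genes. This share rested largely on CVX-060 rat 5, since without it 18 of the 33 genes had the higher mean and the median was 0.0041. Without vehicle rat 2 the count was 7. The lower means therefore describe these 10 rats, and no single gene carried them past the test.

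**Figure D1:**
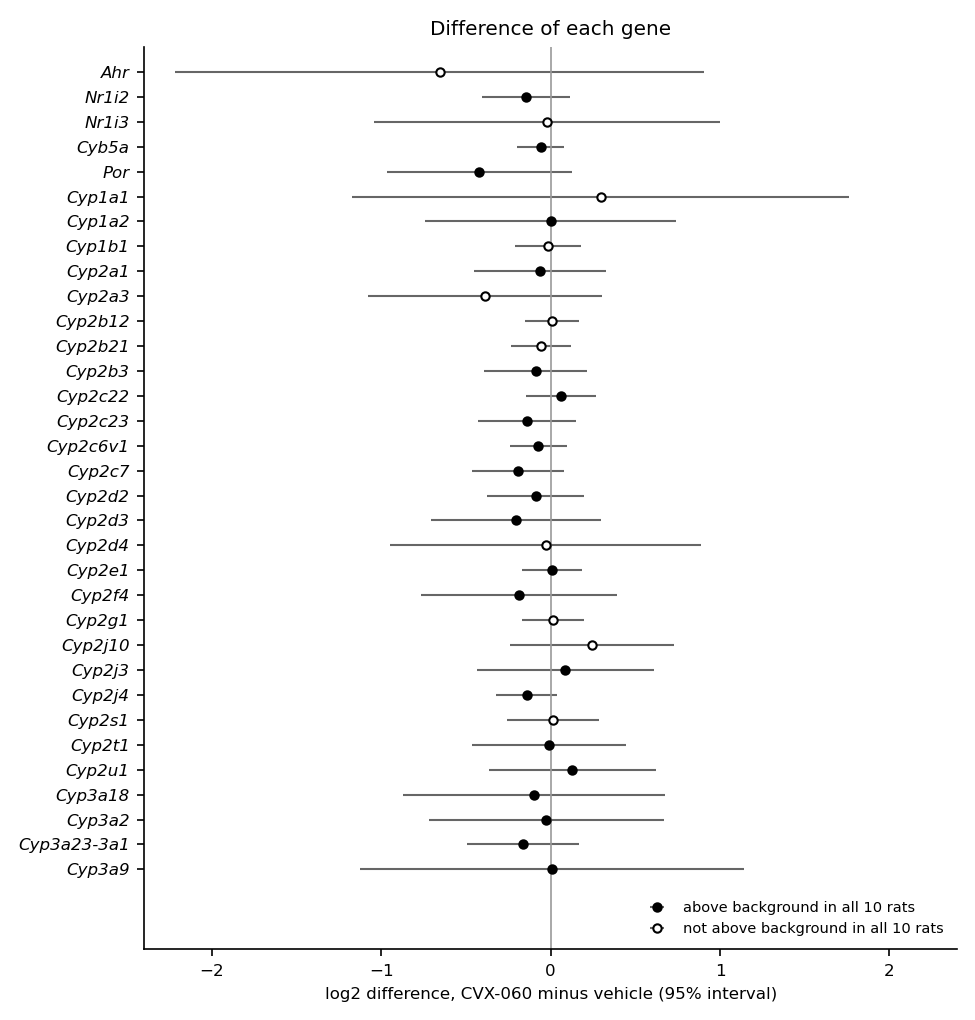
Mean log2 signal with CVX-060 minus that with vehicle for each of the 33 genes, with the 95% interval of the limma fit (5 rats per group); open circles are genes not above background in all 10 rats. Every interval includes 0, and the widest are those of Ahr (-2.22 to 0.91) and Cyp1a1 (-1.17 to 1.76).

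The signal of 22 of the 33 genes lay above background in all 10 rats, where background was the 95th percentile of 20 probe sets on that array that read trace amine, vomeronasal and olfactory receptor genes (5.34 to 6.06). A further 5 genes, Cyp1b1, Cyp2b12, Cyp2b21, Cyp2g1 and Cyp2s1, lay above it in no rat. At the other end, Cyb5a, Cyp2b3, Cyp2c22, Cyp2c23, Cyp2c6v1, Cyp2c7, Cyp2d2, Cyp2e1, Cyp3a2 and Cyp3a23-3a1 had a mean signal over 13, on arrays whose brightest probe set read 14.77 to 14.81. These 10 genes are among only 92 on the array with so high a mean, and whether such bright probe sets still follow the amount of RNA was not tested. Of the 22 genes above background, 10 spanned more than 2-fold between the highest and the lowest rat. With CVX-060 rat 5 and vehicle rat 2 left out, 4 of the 22 did.

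Rats of the same group differed more in these genes than in most others. The median SD between rats within groups was 0.31 for the 33 genes and 0.18 for all genes, a median that 24 of the 33 exceeded. The count was 21 without CVX-060 rat 5, and 20 without both this rat and vehicle rat 2. Among genes above background in all rats the medians were 0.28 for the 22 P450-related genes and 0.21 for 7526 genes. The most variable probe set was taken for every gene, which raises the SD of any gene with several probe sets. Ahr, Cyp1a1, Cyp3a9, Nr1i3, Cyp2d4, Cyp3a18 and Cyp1a2 ranked in the upper 5% of all genes by this SD, though Ahr, Cyp1a1, Nr1i3 and Cyp2d4 fell below background in some rats. The steadiest of the genes above background were Cyb5a (SD 0.07), Cyp2c6v1 (0.10), Cyp2e1 (0.11) and Cyp2j4 (0.11). All but Cyp2j4 had a mean over 13, where the median SD of the 92 genes of that level was 0.13.

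**Figure D2:**
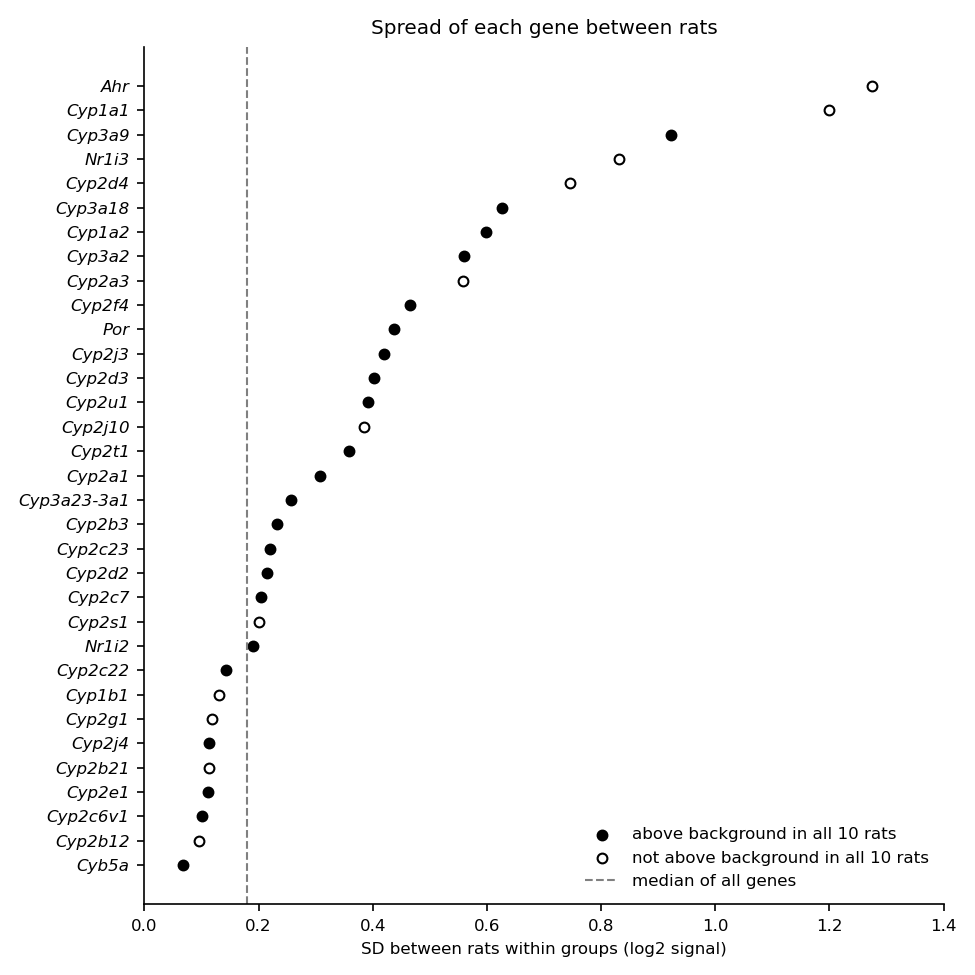
SD between rats within groups (log2 signal, both groups pooled) for each of the 33 genes, with the median of all genes (0.18) as a dashed line; open circles are genes not above background in all 10 rats. Ahr and Cyp1a1 lie beyond 1.1, and Cyb5a has the smallest SD.

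Among the receptors, Ahr had the widest range of signals. Its signal was 5.07, 7.52, 6.85, 4.65 and 5.75 in CVX-060 rats 1 to 5, and 7.44, 8.30, 6.47, 4.76 and 6.13 in vehicle rats 1 to 5. Each group held rats below background, whose values are only upper bounds, and rats well above it. The mean was lower by 0.66 with CVX-060 (SE 0.71, exact permutation test, two-sided, p = 0.405; 5 rats per group allow no p below 0.0079). Without vehicle rat 2 and CVX-060 rat 5 the difference was -0.18, and with the clock gene Bmal1 as a covariate it was -1.28 (limma's unadjusted p 0.0402, adjusted p 0.855). A second probe set of Ahr lay below background in all 10 rats and had the opposite sign, with 4.19 to 4.38 in CVX-060 rats against 3.85 to 4.16 in vehicle rats. These ranges did not overlap (difference 0.21, exact permutation p = 0.0079, the smallest possible), though limma's adjusted p over every probe set was 0.99997 and the probe set was singled out after its values were seen.

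Nr1i3, which encodes CAR, the receptor behind phenobarbital-type induction, read 7.25, 7.39, 5.42, 6.78 and 6.56 in CVX-060 rats and 6.86, 7.90, 5.51, 6.32 and 6.95 in vehicle rats. A single rat of each group, rat 3 in both, lay below background, so that its value is only an upper bound. The means differed by -0.02 (SE 0.46, exact permutation p = 0.960). Without CVX-060 rat 5 and vehicle rat 2 the difference was 0.30, the reverse sign. Nr1i2, which encodes PXR, was far more even, at 9.69, 9.90, 9.60, 9.50 and 9.60 in CVX-060 rats and 9.74, 9.64, 9.72, 9.74 and 10.20 in vehicle rats. Apart from the value of vehicle rat 5, all rats lay between 9.50 and 9.90. The difference was -0.15 (SE 0.12, exact permutation p = 0.294), and it was -0.05 without vehicle rat 5. Leaving out CVX-060 rat 2 instead gave -0.21 (exact permutation p = 0.0476, limma's unadjusted p 0.106 and adjusted p 0.999). That exact p was the smallest for Nr1i2 as single rats were left out.

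**Figure D3:**
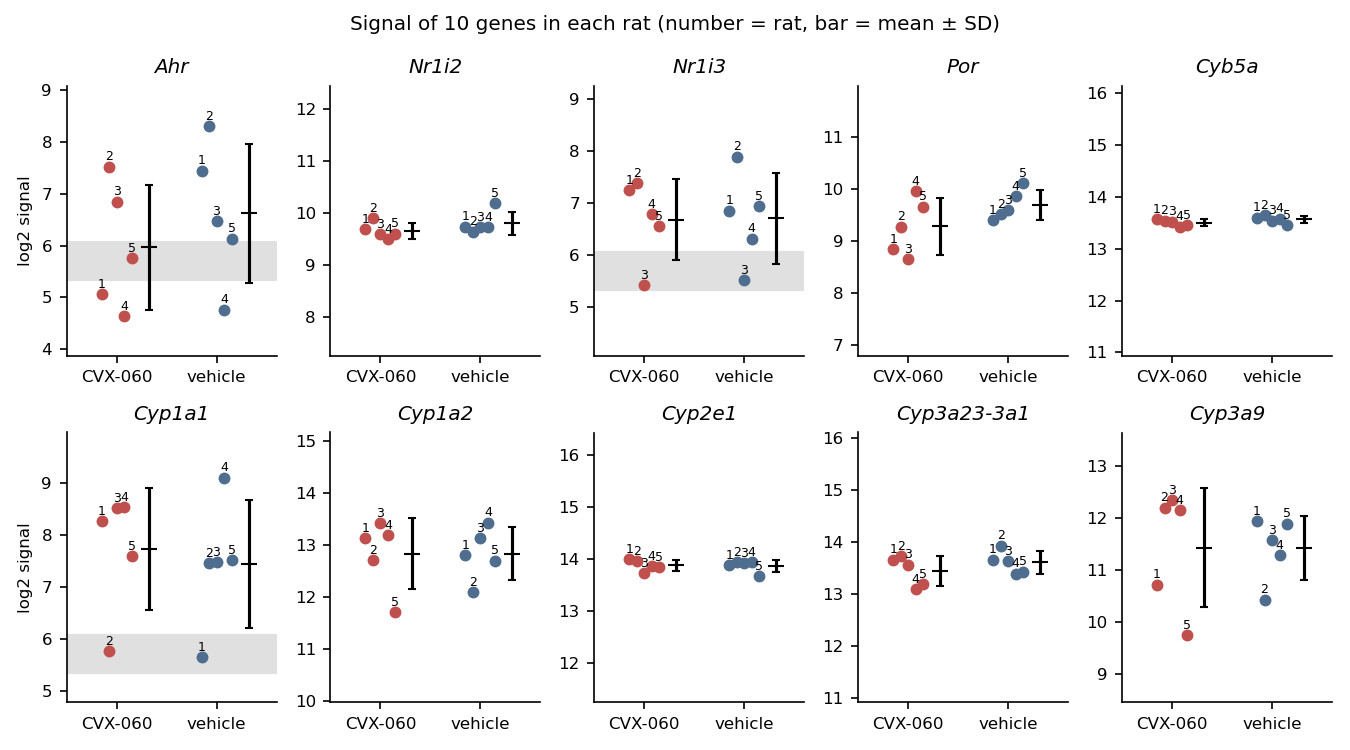
Log2 signal of the 3 receptors, the 2 electron donors and 5 P450 genes in each rat, CVX-060 on the left and vehicle on the right of each panel; numbers name the rats, bars show mean ± SD (n = 5) and the grey band is the range of the background level over the arrays. All panels span the same log2 range, so that the spread of Ahr (4.65 to 8.30) can be set against that of Cyb5a (13.43 to 13.64).

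In family 1, Cyp1a1, a classical target of the aryl hydrocarbon receptor, read 8.27, 5.75, 8.52, 8.53 and 7.58 in CVX-060 rats and 5.64, 7.45, 7.47, 9.10 and 7.51 in vehicle rats. CVX-060 rat 2 and vehicle rat 1 were the lowest, at the edge of background, and each group held both low and high rats. The mean was higher by 0.30 with CVX-060 (SE 0.66, exact permutation p = 0.635), and the estimate ran from -0.15 to 0.79 as single rats were left out. Cyp1a2, a hepatocyte enzyme that oxidizes caffeine and aromatic amines, read 13.13, 12.72, 13.43, 13.20 and 11.71 in CVX-060 rats and 12.81, 12.09, 13.14, 13.43 and 12.71 in vehicle rats. Its lowest signals were those of CVX-060 rat 5 and vehicle rat 2, and the group means did not differ beyond this spread (difference -0.00071, SE 0.33, limma's unadjusted p 0.998). Without those rats the difference was 0.09. Cyp1b1, an extrahepatic member of the family, stayed at 5.27 to 5.60 in CVX-060 rats and 5.27 to 5.54 in vehicle rats, below background in each.

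Across the 10 rats the signals of Ahr and Cyp1a1 ran in opposite directions. Cyp1a1 was lowest in CVX-060 rat 2 and vehicle rat 1, in which Ahr was 7.52 and 7.44, and highest in vehicle rat 4 and CVX-060 rat 4, the rats with the lowest Ahr. Pearson's r was -0.698 (permutation p = 0.0253, adjusted 0.202) and Spearman's rho -0.818 (permutation p = 0.0063, adjusted 0.0506), so that neither passed after adjustment over the 8 receptor, donor and target pairs examined. Without vehicle rat 2 and CVX-060 rat 4, the rats farthest from the median of Ahr, r was -0.810 (adjusted permutation p = 0.120), and with values centred within each group it was -0.693. Because the Ahr signal lay above background in only 7 of the 10 rats, part of its range is at the foot of the scale. In that centred setting Por and Cyb5a had r = -0.774 (adjusted permutation p = 0.0757), against -0.405 uncentred. Of the other 7 pairs, including Ahr with Cyp1a2 (r = -0.399) and Nr1i2 with Cyp3a2 (r = 0.440), 0 passed adjustment. The lowest adjusted p among them with values as deposited was 0.141, that of Spearman's rho for Nr1i2 and Cyp3a2.

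Por, the single flavoprotein that feeds electrons to all microsomal P450s, read 8.84, 9.28, 8.66, 9.97 and 9.66 in CVX-060 rats and 9.41, 9.53, 9.59, 9.87 and 10.12 in vehicle rats. CVX-060 rats 1, 2 and 3 lay below every vehicle rat, whereas CVX-060 rats 4 and 5 lay within the vehicle range. The difference was -0.42 (SE 0.25, 95% interval -0.97 to 0.13, exact permutation p = 0.175), and its second probe set gave -0.20. Leaving out CVX-060 rat 4 gave -0.59 (exact permutation p = 0.0635, limma's unadjusted p 0.0231 and adjusted p 0.999), and leaving out CVX-060 rat 3 gave -0.26. Por lay higher where the clock gene Bmal1 lay lower. The signal of Bmal1 was 8.38, 8.75, 8.17, 5.75 and 5.21 in CVX-060 rats and 7.90, 7.95, 5.13, 4.87 and 4.88 in vehicle rats. The 5 rats with Bmal1 at 5.75 or below had Por at 9.59 to 10.12, and the other 5 had 8.66 to 9.53. High Bmal1 was found in 3 CVX-060 and 2 vehicle rats, and with Bmal1 as a covariate the Por difference was -0.20 (limma's unadjusted p 0.314). Of the 33 genes, only Por, by the probe set used, had signals that did not overlap between these 5 rats and the other 5. The split was chosen after the values were seen, and the share of all genes it separates was not computed. The second Por probe set did overlap, at 11.66 in vehicle rat 3 (low Bmal1) and 11.67 in vehicle rat 2 (high Bmal1). Cyb5a, the gene of microsomal cytochrome b5, read 13.58, 13.54, 13.52, 13.43 and 13.45 in CVX-060 rats and 13.60, 13.64, 13.54, 13.58 and 13.45 in vehicle rats. All 10 values fell within 1.16-fold, with a difference of -0.06 (SE 0.06, exact permutation p = 0.175). Without vehicle rat 5 the difference was -0.09 (exact permutation p = 0.0397, limma's unadjusted p 0.209 and adjusted p 0.999). That exact p was the smallest for Cyb5a as single rats were left out.

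Cyp2e1, the ethanol-inducible enzyme that activates CCl4, was among the steadiest genes. It read 14.01, 13.96, 13.74, 13.87 and 13.85 in CVX-060 rats and 13.88, 13.95, 13.93, 13.95 and 13.67 in vehicle rats, a range of 1.26-fold. The difference of 0.0072 (SE 0.08, 95% interval -0.17 to 0.18, exact permutation p = 0.937) was far inside the spread of the rats. The 4 Cyp2c genes that remained, Cyp2c6v1, Cyp2c7, Cyp2c22 and Cyp2c23, lay between 12.83 and 14.23 in all rats. Cyp2c7, a retinoic acid hydroxylase higher in female rats, read 13.96, 13.93, 13.77, 13.83 and 13.37 in CVX-060 rats and 13.78, 14.15, 13.85, 14.11 and 13.93 in vehicle rats. Its extremes were CVX-060 rat 5 at the bottom and vehicle rat 2 at the top, and the difference of -0.19 (SE 0.12, exact permutation p = 0.167) was -0.05 without them. Cyp2c22 read 14.03, 13.95, 13.93, 13.84 and 14.23 in CVX-060 rats and 13.90, 14.01, 13.85, 14.13 and 13.77 in vehicle rats (difference 0.06, SE 0.09, exact permutation p = 0.508). The median difference of the 4 Cyp2c genes was -0.11.

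In the Cyp2j subfamily, whose enzymes epoxidize arachidonic acid, the 3 genes did not share a direction. Cyp2j4 read 9.77, 9.72, 9.97, 9.82 and 9.66 in CVX-060 rats and 9.92, 10.12, 9.89, 9.90 and 9.83 in vehicle rats. Of the CVX-060 rats, 4 lay below every vehicle rat and rat 3 lay among them, which gave the smallest p of the 33 genes (difference -0.14, SE 0.08, exact permutation p = 0.0794, limma's unadjusted p 0.106). Leaving out CVX-060 rat 3, the only one to overlap, necessarily separates the ranges. The difference was then -0.19 (exact permutation p = 0.0159, the smallest possible with 4 against 5 rats, limma's adjusted p 0.996). That fit was picked out after the values were seen. Without CVX-060 rat 5 and vehicle rat 2 the difference was -0.06. Cyp2j3 read 9.22, 9.15, 9.07, 8.64 and 8.39 in CVX-060 rats and 9.36, 8.09, 8.96, 8.94 and 8.69 in vehicle rats (difference 0.09, exact permutation p = 0.762). Cyp2j10, above background in 2 rats, was 5.42, 5.17, 5.07, 6.09 and 5.97 in CVX-060 rats and 5.31, 5.76, 5.24, 5.22 and 4.98 in vehicle rats. CVX-060 rats 4 and 5 were the highest of the 10, and the difference was 0.24 (SE 0.22, exact permutation p = 0.310).

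The remaining family 2 genes held a few rats with signals of their own. Cyp2a3, an enzyme of the olfactory and respiratory mucosa, lay at 4.41, 4.30, 4.42, 4.38 and 4.43 in CVX-060 rats and at 4.72, 6.15, 4.24, 4.45 and 4.33 in vehicle rats. Vehicle rat 2 alone was above background, and the difference of -0.39 (SE 0.31, exact permutation p = 0.357) was -0.06 without it and CVX-060 rat 5. Cyp2d4 read 5.77, 7.01, 7.17, 5.92 and 6.02 in CVX-060 rats and 7.10, 5.36, 5.68, 6.88 and 7.02 in vehicle rats. The values fell into a lower and an upper set that each held rats of both groups (difference -0.03, SE 0.41, exact permutation p = 0.984), whereas its other probe set spread over 8.12 to 9.58 in CVX-060 rats and 8.29 to 9.27 in vehicle rats. Cyp2u1 read 7.33, 6.81, 6.46, 6.85 and 6.43 in CVX-060 rats and 6.98, 7.08, 6.04, 6.68 and 6.46 in vehicle rats (difference 0.13, exact permutation p = 0.611). Both groups covered much the same range, and without CVX-060 rat 5 and vehicle rat 2 the difference was 0.32. Cyp2a1, Cyp2b3, Cyp2d2, Cyp2d3, Cyp2f4 and Cyp2t1 lay above background in all rats, with differences of -0.20 to -0.0095 and exact permutation p of 0.540 to 0.984. Their intervals were too wide to show that the groups were alike. Cyp2b3 is the only liver-expressed Cyp2b gene with a probe set of its own here, at 12.82 to 13.33 in CVX-060 rats and 12.81 to 13.36 in vehicle rats.

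The Cyp3a genes, whose human relatives metabolize many drugs in use, lie on chromosome 12 in the order Cyp3a18, Cyp3a2, Cyp3a23-3a1 and Cyp3a9. Their sequences from 200 to 61 bases before the transcription start are shown because Cyp3a23-3a1 and Cyp3a2, the pair closest in sequence, parted in vehicle rat 2. They are taken from RefSeq (GRCr8) and read 5′ to 3′ along the gene, with every TGAACT and AGGTCA, or their reverse complements AGTTCA and TGACCT, in capitals. These are half-sites of nuclear receptors such as PXR.
Cyp3a23-3a1 (chr12:14398864-14399003, minus strand): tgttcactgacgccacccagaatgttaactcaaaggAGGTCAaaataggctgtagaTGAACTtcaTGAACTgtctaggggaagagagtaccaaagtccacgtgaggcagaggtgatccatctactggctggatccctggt
Cyp3a2 (chr12:14343918-14344057, minus strand): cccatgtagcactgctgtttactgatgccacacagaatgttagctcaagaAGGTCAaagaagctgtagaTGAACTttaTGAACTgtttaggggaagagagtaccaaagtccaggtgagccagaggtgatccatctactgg
Cyp3a18 (chr12:13994112-13994251, plus strand): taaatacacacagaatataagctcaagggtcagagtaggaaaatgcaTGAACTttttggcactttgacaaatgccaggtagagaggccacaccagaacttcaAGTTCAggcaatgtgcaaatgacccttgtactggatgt
Cyp3a9 (chr12:21960221-21960360, minus strand): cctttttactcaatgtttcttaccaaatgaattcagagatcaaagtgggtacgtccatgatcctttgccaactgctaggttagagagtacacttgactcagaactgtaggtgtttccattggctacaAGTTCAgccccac
Over the 250 bases before the start, Cyp3a23-3a1 and Cyp3a2 were 84.0% identical in a global alignment, and the other 5 pairs 56.8% to 61.6%. Both carry AGGTCA followed by 2 copies of TGAACT with 3 bases between them, the direct repeat known as a PXR element of rat Cyp3a genes. On either strand that repeat was present in 2 of 27457 promoters of this length (0.00728%), which are these. TGAACT itself occurred in 12.1% and AGGTCA in 13.7% of all promoters. Cyp3a18 has TGAACT at -153 and AGTTCA at -98, and Cyp3a9 has AGTTCA alone. A match of letters is a description and not a measured binding site.

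Cyp3a23-3a1, the PXR-inducible form, read 13.67, 13.74, 13.57, 13.09 and 13.19 in CVX-060 rats and 13.67, 13.94, 13.64, 13.40 and 13.43 in vehicle rats. CVX-060 rats 4 and 5 were the lowest and vehicle rat 2 the highest, and the difference was -0.16 (SE 0.15, exact permutation p = 0.365). It was -0.02 without CVX-060 rat 5 and vehicle rat 2. With Bmal1 as a covariate it was -0.32 (limma, unadjusted p = 0.00565, adjusted p = 0.834), in a fit in which 5.74% of all genes had an unadjusted p under 0.05. Cyp3a2, a male-predominant form, read 13.87, 13.94, 13.94, 13.26 and 13.26 in CVX-060 rats and 14.04, 12.42, 14.02, 13.94 and 13.98 in vehicle rats. Vehicle rat 2 thus had the lowest Cyp3a2 and the highest Cyp3a23-3a1 of all rats, while CVX-060 rats 4 and 5 were low in both genes. The difference for Cyp3a2 was -0.03 (SE 0.31, exact permutation p = 0.889), and -0.24 without CVX-060 rat 5 and vehicle rat 2 (exact permutation p = 0.0857; 4 rats per group allow no p below 0.0286).

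**Figure D4:**
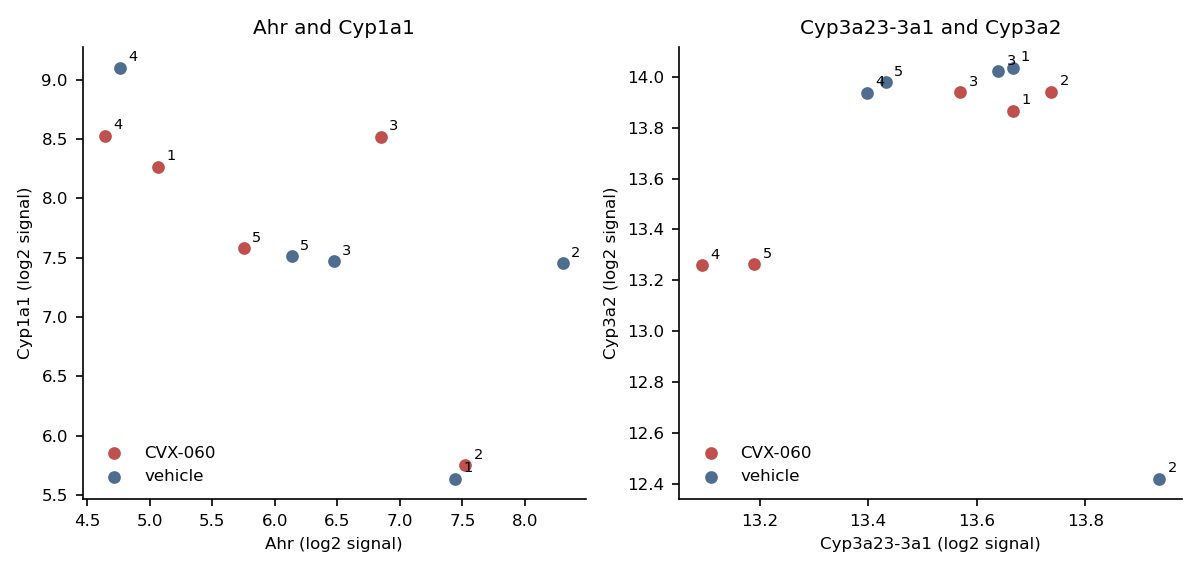
Log2 signal of Cyp1a1 against Ahr (left) and of Cyp3a2 against Cyp3a23-3a1 (right) in each of the 10 rats, with rat numbers beside the points. Cyp1a1 is lower where Ahr is higher, and vehicle rat 2 combines the lowest Cyp3a2 (12.42) with the highest Cyp3a23-3a1 (13.94).

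Cyp3a18, also male-predominant, read 12.58, 12.56, 13.35, 12.54 and 11.96 in CVX-060 rats and 13.18, 11.39, 12.89, 13.003 and 13.02 in vehicle rats. CVX-060 rat 5 and vehicle rat 2 were again the lowest (difference -0.10, SE 0.35, exact permutation p = 0.802), and the difference without them was -0.26. Cyp3a9, which is known to be higher in female than in male rats, read 10.72, 12.20, 12.35, 12.15 and 9.75 in CVX-060 rats and 11.94, 10.43, 11.57, 11.28 and 11.89 in vehicle rats. It varied 6.07-fold, and its lowest signals were in the same 2 rats, unlike the female-specific Cyp2c12. The group means did not differ beyond this spread (difference 0.0075, SE 0.51, exact permutation p = 0.992).

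Over the 22 genes above background, CVX-060 rat 5 and vehicle rat 2 were together the lowest 2 of the 10 rats for 6 genes (27.3%), namely Cyp1a2, Cyp2b3, Cyp2j3, Cyp2t1, Cyp3a18 and Cyp3a9. Among 7526 genes above background this held for 8.48%. They were together the highest for 0 of the 22, against 10.9% of those genes. CVX-060 rat 5 was the lowest rat for 7 of the 22 and for 13.5% of the 7526 genes. Vehicle rat 2 was more divided, being lowest for 5 (12.6% of the 7526 genes) and highest for 6 (17.7%). The 6 were Cyp2a1, Cyp2c6v1, Cyp2c7, Cyp2j4, Cyb5a and Cyp3a23-3a1. Other rats were often extreme too, as CVX-060 rat 4 was lowest for 5 (10.4% of the 7526 genes) and CVX-060 rat 3 highest for 5 (10.6%). The mean of 5 stellate cell and myofibroblast markers was 7.77 to 8.38 in CVX-060 rats, with rat 5 the highest, and 7.60 to 8.15 in vehicle rats, with rat 2 at 7.98. Among these markers, Acta2 lay above background in 7 rats and Des in all 10. The mean of 4 cholangiocyte markers was 5.71 to 6.86 in CVX-060 rats and 5.503 to 6.83 in vehicle rats, and CVX-060 rat 5 and vehicle rat 2 had the highest values of the 10. Among them only Epcam was highest in these rats, with 9.68 in CVX-060 rat 5 and 9.59 in vehicle rat 2, against at most 8.90 elsewhere. Spp1, above background in all 10 rats, was highest in vehicle rat 3 (7.53). Krt19 was highest in CVX-060 rat 4 (6.55) and Krt7 in CVX-060 rat 1. Krt19 lay above background in 5 rats and Krt7 in 0. The mean of 4 macrophage markers was 9.17 to 9.92 in CVX-060 rats, with rat 5 the highest, and 9.12 to 9.48 in vehicle rats, with rat 2 the highest. The part of these cells in the low P450 signals was not tested.

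**Figure D5:**
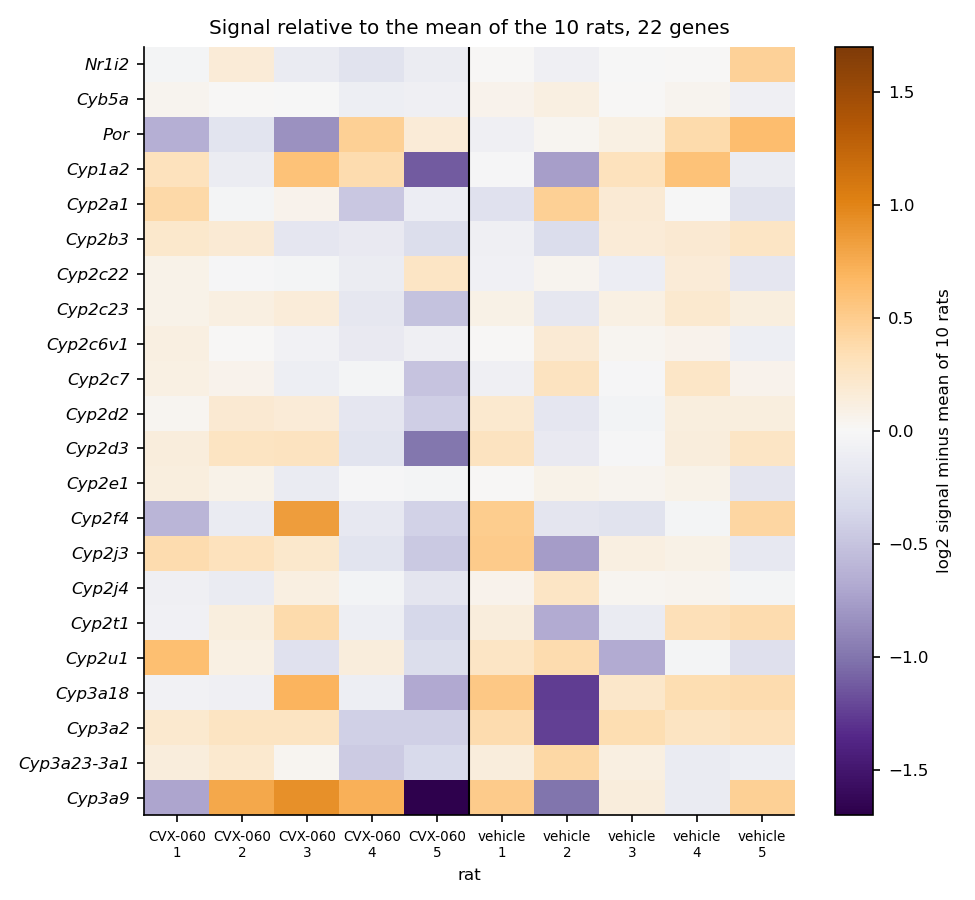
Log2 signal of each of the 22 genes above background in all rats, relative to its own mean over the 10 rats; columns are rats (5 CVX-060, then 5 vehicle), brown is above and purple below the mean. CVX-060 rat 5 and vehicle rat 2 hold most of the deep purple cells, in Cyp1a2, Cyp3a18 and Cyp3a9 in both.

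Genes that work with these P450s did not pass the test either. In limma, 0 genes reached an adjusted p of 0.05 in any of 17 lists of partners, cell type markers and sex-patterned P450s. Of their 81 genes, 2 (2.47%), Fmo5 and the endothelial Lyve1, had an unadjusted p under 0.05, a share close to the 2.44% of all genes. The 81 include Cyp3a2, Cyp3a18, Cyp2a1, Cyp2c7 and Cyp3a9, which were already counted above. Of 5 Ahr partners and other targets, Arnt, Ahrr, Tiparp and Aldh3a1 lay below background in all rats (differences 0.00095 to 0.04; median of the 5, 0.04). Nqo1, a quinone reductase, averaged 10.50 ± 1.29 in CVX-060 rats and 9.96 ± 1.02 in vehicle rats (SD, n = 5 each; exact permutation p = 0.460). Of 8 CAR and PXR partners and liver factors, 7 had a lower mean (median -0.20), among them Nr3c1, the glucocorticoid receptor, at 9.90 ± 0.29 in CVX-060 rats and 10.16 ± 0.16 in vehicle rats (exact permutation p = 0.127). Cebpa and Cebpb, hepatocyte transcription factors, differed by -0.34 and -0.13. Of 8 other CAR and PXR targets 5 had a higher mean (median 0.07), with 0.30 for the bile conjugate exporter Abcc2 and -0.47 for the stress gene Gadd45b. Neither passed its test (exact permutation p = 0.429 and 0.206).

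Among 4 further genes of electron supply, 3 had a lower mean (median -0.04), and the cytochrome b5 reductase Cyb5r3 differed by 0.13 (exact permutation p = 0.675). Of 9 genes of heme synthesis and breakdown, which supply and recycle the P450 cofactor, 6 had a lower mean, with a median of -0.03 and a range of -0.18 to 0.08. Of 5 microsomal partner oxidases and hydrolases 3 had a lower mean (median -0.06). Fmo5, a flavin monooxygenase, averaged 11.48 ± 0.23 in CVX-060 rats and 10.90 ± 0.47 in vehicle rats (SD, n = 5 each), a difference of 0.58 (exact permutation p = 0.0476, limma's adjusted p 0.99997). The epoxide hydrolase Ephx1 differed by -0.25 (exact permutation p = 0.206). Of the cell type lists, 3 of 3 sinusoidal endothelial, 4 of 4 macrophage and 5 of 5 stellate cell markers had a higher mean with CVX-060 (medians 0.35, 0.25 and 0.14). The median was 0.06 for 5 hepatocyte, -0.0049 for 5 pericentral, -0.05 for 5 periportal, 0.11 for 4 cholangiocyte and -0.04 for 3 T and B cell markers. The mean of the sinusoidal markers was 9.52 to 10.03 in CVX-060 rats and 9.03 to 9.83 in vehicle rats, and its part in the P450 values was not tested. For the male-predominant Cyp3a2 and Cyp3a18 the median was -0.06, for the female-predominant Cyp2a1, Cyp2c7 and Cyp3a9 -0.06, and for the 4 sex-patterned P450s left out -0.01.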

How the data were processed

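Liver RNA (150 ng per rat) of 5 CVX-060 and 5 vehicle rats was hybridized to 3′ expression arrays. The authors deposited normalized log2 signals, 1 per probe set. According to the submitters' processing notes, R 3.4.0 was used with affy 1.56.0 and limma 3.38.2. How background was corrected and probes were summarized is not given in the sources used here. Of 31099 probe sets, 57 controls, 436 with several symbols and 9780 without a symbol were dropped, leaving 20826 of 14217 genes. Groups were compared by lmFit and eBayes in limma 3.58.1 (R 4.3.3), p-values being adjusted over all genes after Benjamini and Hochberg. Single genes were compared by exact two-sided permutation over 252 arrangements. Correlations used 100000 permutations. The limma step was tested on simulated data, with changes placed only in genes of at most the median SD. Detection of changes in more variable genes was therefore not tested. Tables and plots came from Python 3.11.15 (matplotlib 3.10.9, numpy 2.4.6, scipy 1.17.1, pandas 2.3.3).

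The members, lists, tests and alternatives were chosen with earlier results of these data known. The genes given in full were Cyp1a1, Cyp1a2, Cyp2e1, Cyp3a23-3a1, Cyp3a9, the donors and receptors, the 6 of largest SD, and 5 per direction by the smallest limma p. Of each list, up to 3 genes by the smallest p could be named, and Cyp3a2 was added after its values were seen. Results were recomputed with the brightest probe set per gene, every probe set, genes under the 40th percentile of signal dropped, quantile normalization, median centring, array weights, a trended robust prior, the replicate number as a block, Bmal1 as a covariate, other background percentiles, and rats left out. Of the 33 genes, 31 had a RefSeq promoter entry. The number of arrays limits the precision.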

Additional observations from a re-analysis of the deposited data

Results flagged for a closer look

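In 6 of 66 groups (33 genes, 5 rats each) a single rat lay apart from the other 4 of its group, by a gap to the nearest rat that exceeded Dixon's 95% critical value. For independent normal values chance alone gives such a gap in about 1 group in 20. The share over all genes was not computed, so the count cannot be called particular to these genes, and the causes were not tested. Vehicle rat 2 was the rat in 4 of them. Its Cyp3a2 signal was 12.42, against 13.94 to 14.04 in the other 4, its Cyp3a18 signal 11.39 against 12.89 to 13.18, and its Cyp2c23 signal 13.16 against 13.43 to 13.53. Its Cyp2a3 signal was higher instead, 6.15 against 4.24 to 4.72, values that lay below background. In vehicle rat 5, Cyp2e1 was 13.67 where the others had 13.89 to 13.95, and Nr1i2 was 10.20 where they had 9.64 to 9.74. CVX-060 rat 5, the other rat that stood apart over all genes, was singled out in 0 of the 66 groups.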

How the results depend on the processing

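The count of 0 genes at an adjusted p of 0.05 was unchanged in each alternative. At an unadjusted p under 0.05 it was 0 in the analysis reported, 1 with every probe set tested (the second Ahr probe set; 2.67% of all probe sets), 1 with array weights (Por; 4.83% of all genes) and 3 with Bmal1 as a covariate (Ahr at -1.28, Cyp2j4 at -0.18 and Cyp3a23-3a1; 5.74%). It was 0 to 2 as single rats were left out (2.04% to 5.02%). The replicate numbers do not pair the rats (correlations -0.17 to 0.15), and the fit with the replicate block gave 0 genes at the adjusted and 1 (Por) at the unadjusted threshold, where 2.74% of all genes fell.

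With weak genes filtered out, 26 of the 33 were left and 6 had the higher mean with CVX-060. Over the rats left out, the number higher ran from 7 to 18, the median from -0.10 to 0.0041 and the genes without overlap from 0 to 1. The 1 was Cyp2j4 without CVX-060 rat 3, the only rat that had overlapped. Some differences changed sign. Quantile normalization gave Cyp1a2 0.051 and Cyp2e1 -0.0037, and array weights gave Cyp1a1 -0.074, Cyp3a9 -0.049 and Nr1i3 0.41. The Bmal1 covariate gave Cyp2e1 -0.017, Cyp3a9 -0.10, Cyp2u1 -0.035 and Cyp2j3 -0.0081. Without CVX-060 rat 5 and vehicle rat 2, Cyp1a2 was 0.095 and Nr1i3 0.30. As single rats were left out, the differences of 18 of the 33 genes crossed 0. Among the 19 genes followed singly through the alternatives, where not filtered out, they were Cyp1a1 (-0.15 to 0.79), Cyp1a2 (-0.19 to 0.28), Cyp2d4 (-0.29 to 0.14), Cyp2e1 (-0.043 to 0.044), Cyp2j3 (-0.094 to 0.23), Cyp2u1 (-0.023 to 0.24), Cyp3a18 (-0.42 to 0.063), Cyp3a9 (-0.24 to 0.43) and Nr1i3 (-0.32 to 0.29). The r of Nr1i3 and Por was 0.15, and -0.467 without the 2 rats farthest in Nr1i3. The cause of these changes was not tested. Signals near background, as in Ahr, Nr1i3, Cyp2d4 and Cyp1a1, limit what their differences can show.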
